A study of Mus musculus with 13 samples.

Results

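The promoters of 39 genes of the unfolded protein response and the heat shock response were examined for H3K4me3, the histone mark of active promoters, in mouse hippocampus. The genes were taken by name from the deposited table of H3K4me3 regions, which holds 14006 distinct regions and 14523 gene names, and each gene was represented by its region with the highest mean over the 13 libraries. All 39 had a region. They comprise 14 chaperones and folding enzymes of the endoplasmic reticulum (ER), 5 sensors and transcription factors, 4 genes of ER-associated degradation, 5 targets of the transcription factor ATF4 and 11 heat shock genes, mostly of the cytosol. The values are normalised read counts per region, that is, read counts that the authors divided by 1 factor per library.

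The libraries came from C57BL/6 mice and bear on H3K4me3 after loss of methionine synthase (Mtr) and after SRT2104, an activator of the deacetylase SIRT1. Wild-type mice, labelled MLML-WT, received the vehicle DMSO-PEG (n = 4 libraries) or SRT2104 (n = 3). Knockout mice, labelled TC;MLML_MTR-KO, were untreated (n = 2) or received SRT2104 (n = 4). In the knockouts floxed exons 4 and 5 of Mtr were removed by Cre expressed from the Thy-1.2 promoter, which is active in neurons, so other cells of the tissue need not lack the enzyme. The dose of SRT2104 was 50 mg/kg, and 9 gavages, 3 each week, ran between days 15 and 36, with 20% DMSO in the stock. The label of the untreated knockouts names no vehicle, so gavage cannot be told apart from genotype in their comparison with wild-type vehicle, nor from the compound in that with treated knockouts. Nothing states that every library came from its own mouse, and the p-values therefore cover the spread among libraries only, which may be technical.

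The shallowest library, wild-type SRT2104 replicate 1, held 3963196 reads within regions and the deepest, treated knockout replicate 2, 9009109. A pair of libraries stood apart across the genome. Untreated knockout replicate 1 was the highest of the 13 libraries in 38.0% of all regions, and in 27 of the 39 genes. Wild-type SRT2104 replicate 1 was the lowest in 35.6% of all regions and in 24 of the 39 genes. A sex letter in the column names marks all 4 wild-type vehicle libraries as male and both untreated knockouts as female, so sex and genotype cannot be told apart between those 2 groups alone. H3K4me3 at the promoter of Mtr lies outside the deleted exons and gives no check of the genotype labels. The tissue label was compared with marker genes. All 10 neuronal markers had a region, with means from 106 (Neurod6) to 1063 (Rbfox3) and the dentate granule cell gene Prox1 at 1059. The 6 microglial markers with a region had means of 20.7 to 42.6. Astrocyte markers spanned 103 (Aqp4) to 738 (Slc1a2) and oligodendrocyte markers 98.9 (Mog) to 654 (Mbp), which overlaps the neuronal range. In bulk tissue, fewer cells of a type and less H3K4me3 per cell cannot be told apart.

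Proteins of the secretory pathway and of the cell surface, which include the receptors and channels of neurons, fold in the ER with the help of chaperones such as HSPA5 (BiP), HSP90B1 (GRP94), calreticulin and calnexin and of protein disulfide isomerases. When unfolded proteins accumulate, the membrane sensors IRE1 (Ern1), PERK (Eif2ak3) and ATF6 start the unfolded protein response. IRE1 splices the mRNA of Xbp1, ATF6 is cleaved to a transcription factor, and PERK phosphorylates eIF2α, which lowers translation in general and raises that of ATF4. XBP1 and ATF6 raise chaperone and degradation genes through the ER stress response element, ATF4 raises genes of amino acid metabolism and of the stress outcome, and in the cytosol HSF1 drives heat shock genes through heat shock elements.

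Some of these elements are visible in the promoters themselves. RefSeq promoter windows (250 bases before to 50 after a gene's start, build GRCm38.p6) were found for 31 of the 39 genes, in 33 windows. Windows were not found for Atf6, Hspa8, Hsp90ab1, Hsp90aa1, Hsf1, Manf, Hyou1 and Hspa9. The ER stress response element was searched on both strands as CCAAT and CCACG with 9 bases of any kind between them. It occurred in the windows of 7 of the 12 ER chaperones with a window (Hspa5, Hsp90b1, Calr, Canx, Pdia6, Dnajc3 and Creld2) and in that of Syvn1, against 39 of 32851 windows of all genes (0.119%) and 15 of the 13855 windows of genes in the deposited table (0.108%). Hsp90b1 held it at 2 places, on opposite strands. The letters are part of the reference genome and say nothing of the libraries. The 250 bases before the start of the main ER chaperone genes are shown here 5′ to 3′ on the gene's strand, because these genes hold the element and are described in most detail further on, and the element is in capitals.
Hspa5 (chr2:34771840-34772089, plus strand): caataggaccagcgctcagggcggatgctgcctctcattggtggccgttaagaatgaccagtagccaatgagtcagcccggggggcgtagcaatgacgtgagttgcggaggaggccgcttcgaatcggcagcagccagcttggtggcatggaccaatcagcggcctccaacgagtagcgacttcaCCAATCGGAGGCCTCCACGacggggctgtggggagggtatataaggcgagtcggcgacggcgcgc
Calr (chr8:84846932-84847181, minus strand): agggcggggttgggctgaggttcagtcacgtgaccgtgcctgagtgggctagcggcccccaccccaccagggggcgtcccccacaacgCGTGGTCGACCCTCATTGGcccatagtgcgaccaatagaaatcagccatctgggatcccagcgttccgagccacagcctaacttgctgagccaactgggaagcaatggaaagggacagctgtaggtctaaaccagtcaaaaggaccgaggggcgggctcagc
Hsp90b1 (chr10:86705445-86705694, minus strand): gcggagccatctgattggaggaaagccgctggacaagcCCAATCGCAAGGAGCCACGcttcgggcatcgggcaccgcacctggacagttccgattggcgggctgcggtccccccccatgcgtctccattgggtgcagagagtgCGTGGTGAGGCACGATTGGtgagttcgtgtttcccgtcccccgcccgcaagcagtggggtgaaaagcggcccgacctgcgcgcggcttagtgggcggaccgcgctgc

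The element lay 65 to 47 bases before the start of Hspa5 and 162 to 144 bases before that of Calr, where it is read on the opposite strand. In the other holders it is shown in capitals with 10 bases on either side, since its position and strand vary: it ran on the gene's own strand in Canx, Pdia6, Dnajc3 and Syvn1 and on the opposite strand in Creld2.
Canx (chr11:50325790-50325828, minus strand): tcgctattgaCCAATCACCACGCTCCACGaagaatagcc
Pdia6 (chr12:17266481-17266519, plus strand): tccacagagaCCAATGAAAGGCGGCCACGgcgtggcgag
Dnajc3 (chr14:118937817-118937855, plus strand): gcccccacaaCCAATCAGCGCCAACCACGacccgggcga
Creld2 (chr15:88819510-88819548, plus strand): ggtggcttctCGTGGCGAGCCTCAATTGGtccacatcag
Syvn1 (chr19:6046522-6046560, plus strand): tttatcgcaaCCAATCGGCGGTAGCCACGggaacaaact

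The shorter second form, searched on both strands as ATTGG, any 1 base and CCACG, occurred in the windows of Herpud1 and Dnajb11 and in 12 of all 32851 windows (0.0365%). The element bound by ATF4 with C/EBP partners, searched on both strands as TGATGNAA, occurred in the windows of Asns, Chac1, Trib3 and Herpud1, against 3.97% of all windows and 2.18% of those of genes in the table. Herpud1 therefore held both kinds. The second ER form of Herpud1 and the ATF4 elements of Asns and Chac1 are shown in capitals with 10 bases on either side. That of Chac1 is read on the opposite strand. The ATF4 element of Herpud1, not shown, has the same letters as that of Chac1. Of the 4 holders of the ATF4 element, Asns was above 0 under SRT2104 in the knockouts. Herpud1, Chac1 and Trib3 were below 0. A heat shock element, searched on both strands as GAA, TTC and GAA with 2 bases of any kind between neighbours, was found in both windows of Hsph1 and in 0.603% of all windows. The windows of Hsph1 overlap and hold the same copy, which lies after the gene's start. Of the 6 heat shock genes with a window, only Hsph1 held one. The second ER form of Dnajb11 and the ATF4 element of Trib3 also lay after the start. The XBP1 element TGACGTGG was in 0 member windows and in 0.676% of all windows.
Herpud1 (chr8:94386367-94386397, plus strand): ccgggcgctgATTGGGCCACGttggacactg
Asns (chr6:7693215-7693242, minus strand): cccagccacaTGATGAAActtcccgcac
Chac1 (chr2:119351039-119351066, plus strand): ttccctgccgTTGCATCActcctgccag

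The median of the 39 promoters was 807 normalised reads per region, against 526 over all regions. Per kb of region it was 433 against 359.9, and the median region width was 1789 bp against 1484 bp. Part of this excess is built in, since each gene was represented by its region with the highest mean. All regions also include the weaker regions of genes that have several. Xbp1 had the highest level per kb (525), followed by Syvn1 (518), Eif2ak3 (511) and Calr (493). At the low end were Hspb1, the small heat shock protein HSP27 (111), Trib3, a pseudokinase (231), Bag3, a co-chaperone of HSP70 (276), and Chac1, a glutathione-degrading enzyme (308). By class, the median per kb was 472 for ER degradation, 456 for sensors and factors, 433 for ER chaperones, 411 for heat shock genes and 347 for ATF4 targets. The median coefficient of variation within groups was 5.05% for the 39 genes and 5.95% for all regions.

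**Figure D1:**
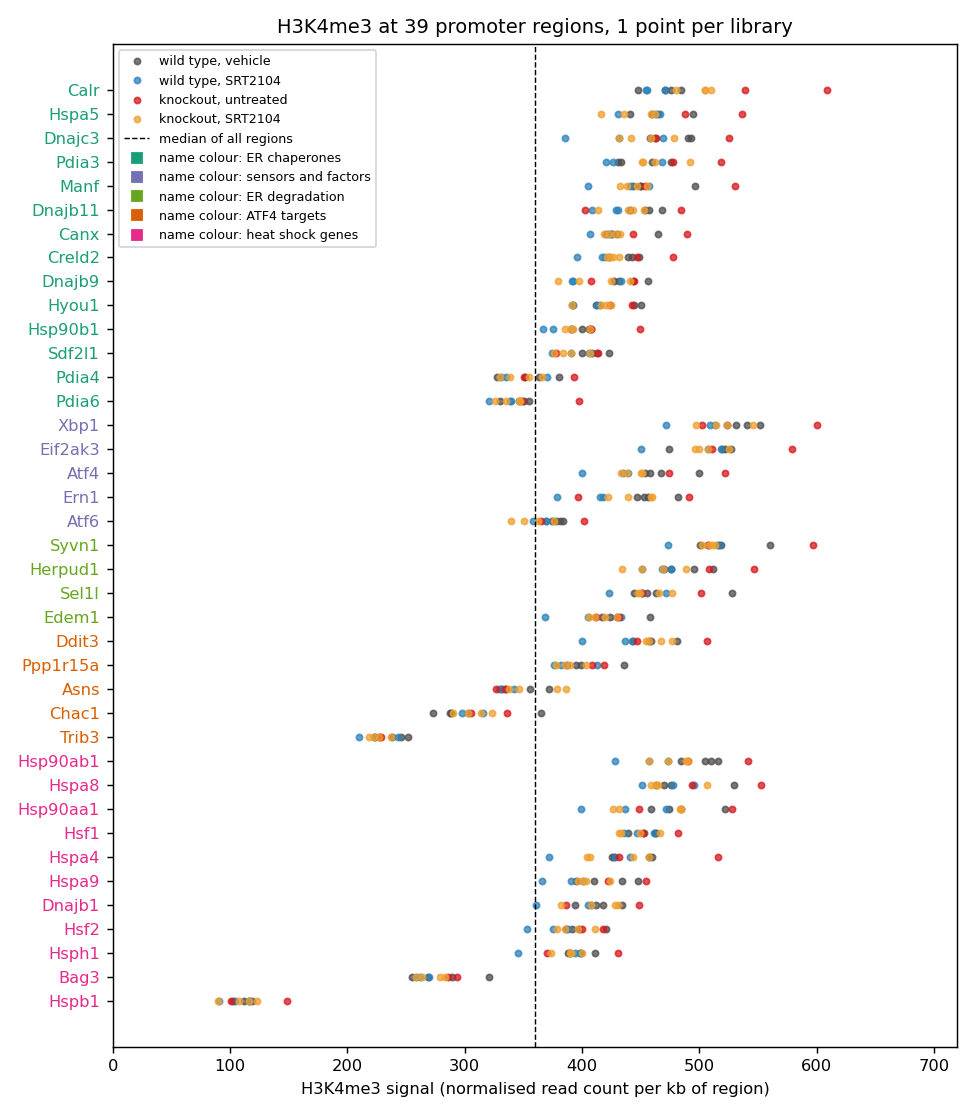
H3K4me3 signal per kb of region (horizontal axis, normalised reads per kb) for the 39 genes, ordered by class and level, with 1 point per library coloured by group and the median of all regions as a dashed line. Most genes lie right of that line at 359.9, with Hspb1 and Trib3 well to its left, and untreated knockout replicate 1 is often the rightmost point.

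ER chaperones and folding enzymes had means between 569 (Sdf2l1) and 993 (Hspa5). Calr (chr8:87369400-87370847, build mm9 as for all table coordinates), which encodes the calcium-binding lectin chaperone calreticulin, measured 648, 700.4, 688 and 682 in wild-type vehicle, 659, 681 and 658 in wild-type SRT2104, 882 and 780.4 in untreated knockouts, and 730.5, 695, 731 and 737 in treated knockouts. Both untreated knockouts lay above all other libraries. Hspa5 (chr2:34626555-34628701), which encodes BiP, the HSP70 of the ER lumen and the partner that holds the sensors inactive, measured 946, 987, 1062 and 997 in wild-type vehicle, 994, 1002 and 925 in wild-type SRT2104, 1151 and 1046 in untreated knockouts, and 992, 935, 894 and 985 in treated knockouts. Untreated knockout replicate 1 was the highest for Hspa5, while replicate 2 was below wild-type vehicle replicate 3. Pdia3 (chr2:121238848-121240820), a disulfide isomerase that works with calreticulin and calnexin and shares its region with Catsper2, measured 906, 854, 939 and 849.7 in wild-type vehicle, 830.0, 923 and 840.4 in wild-type SRT2104, 1023 and 942 in untreated knockouts, and 971, 912, 891 and 889 in treated knockouts. The untreated knockouts were both above wild-type vehicle, by a narrow margin for replicate 2. Dnajb9 (chr12:45309946-45311692), an ER J-domain co-chaperone, measured 746, 775, 796 and 753 in wild-type vehicle, 684, 684 and 757 in wild-type SRT2104, 776 and 711 in untreated knockouts, and 742, 694, 662 and 769 in treated knockouts, and all its groups overlapped. The other chaperones were Hsp90b1, Canx, Pdia4, Pdia6, Hyou1, Dnajb11, Dnajc3, Sdf2l1, Manf and Creld2, and of all 14 the region of Dnajb11 is shared with Tbccd1, that of Pdia3 with Catsper2 and that of Creld2 with Alg12. For the 10 others, the ratio of the highest library to the lowest ran from 1.13 in Sdf2l1 to 1.36 in Dnajc3.

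Among the sensors and transcription factors, Xbp1 (chr11:5420440-5422229) measured 951, 937, 987 and 968 in wild-type vehicle, 844, 911 and 919 in wild-type SRT2104, 1073 and 899 in untreated knockouts, and 976, 889, 919.9 and 937 in treated knockouts. Eif2ak3 (chr6:70794416-70795587), the gene of PERK, measured 608, 556, 611 and 617 in wild-type vehicle, 527, 594 and 607 in wild-type SRT2104, 678 and 598 in untreated knockouts, and 594, 585, 582 and 616 in treated knockouts. For both genes the untreated knockouts enclosed or overlapped wild-type vehicle, and wild-type SRT2104 replicate 1 was the lowest library. Ern1 (chr11:106348086-106349596), the gene of IRE1, measured 684, 674, 728 and 689.6 in wild-type vehicle, 572, 631 and 627 in wild-type SRT2104, 742 and 599 in untreated knockouts, and 695, 638, 663 and 693 in treated knockouts. All 3 wild-type SRT2104 libraries were below all 4 vehicle libraries, and the untreated knockouts were far apart. Atf4 (chr15:80084948-80087341) measured 1096, 1119, 1196 and 1085 in wild-type vehicle, 958, 1050.4 and 1042 in wild-type SRT2104, 1249 and 1136 in untreated knockouts, and 1049.9, 1079, 1078 and 1036 in treated knockouts. Both SRT2104 groups were below the groups without SRT2104 in every library for Atf4. Atf6 (chr1:172797114-172799305) measured 835, 841, 828 and 819.8 in wild-type vehicle, 785, 809.6 and 809 in wild-type SRT2104, 879.6 and 799 in untreated knockouts, and 769, 795, 744 and 825 in treated knockouts, with wild-type SRT2104 below vehicle in all its libraries.

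ER-associated degradation returns misfolded proteins to the cytosol. Syvn1 (chr19:6045881-6047885), the ubiquitin ligase HRD1, measured 1039, 1034, 1122 and 1004 in wild-type vehicle, 949, 1017 and 1036 in wild-type SRT2104, 1196 and 1018 in untreated knockouts, and 1029, 1018, 1007 and 1024 in treated knockouts, and the groups overlapped apart from the high untreated knockout replicate 1. Herpud1 (chr8:96909816-96911985), a membrane component of the same complex, measured 1019, 1075, 1110.3 and 1032 in wild-type vehicle, 1016, 979 and 1032 in wild-type SRT2104, 1185 and 1103 in untreated knockouts, and 942, 979, 1017 and 1059 in treated knockouts. All treated knockouts were below both untreated knockouts. Sel1l, the partner of HRD1, averaged 497 ± 39.9 in wild-type vehicle and 501 ± 37.4 in untreated knockouts (SD, n = 4 and n = 2), and Edem1, which directs glycoproteins to disposal, 793 ± 33.0 and 774 ± 25.7. Neither difference was larger than the SDs.

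ATF4 targets were the class with the least H3K4me3. Ddit3 (chr10:126725125-126726650), the gene of the transcription factor CHOP, shares its region with Mbd6 and measured 699, 677, 733 and 697 in wild-type vehicle, 609.9, 675 and 666 in wild-type SRT2104, 772 and 681 in untreated knockouts, and 727, 693, 697 and 712 in treated knockouts. All 3 wild-type SRT2104 libraries were below every other library. Ppp1r15a (chr7:52780564-52782078), the GADD34 subunit that reverses eIF2α phosphorylation, shares its region with Plekha4 and measured 598, 604, 659.7 and 586 in wild-type vehicle, 570.2, 578 and 626 in wild-type SRT2104, 619 and 634 in untreated knockouts, and 591, 584, 572 and 611 in treated knockouts. Treated knockouts were below both untreated knockouts. Asns (chr6:7642197-7643508), asparagine synthetase, measured 439, 434, 487 and 466 in wild-type vehicle, 431, 448 and 436 in wild-type SRT2104, 428 and 439 in untreated knockouts, and 496, 454, 506 and 443 in treated knockouts. It was the only one of the 39 genes at which all treated knockouts exceeded both untreated knockouts. Chac1 ranged from 370 to 494 and Trib3, whose region is shared with Gm14164, had group means between 292 and 311.

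Of the heat shock genes, Hsp90ab1 (chr17:45708902-45711371), the constitutive cytosolic HSP90, had the highest mean of all 39 (1199) and measured 1196, 1273, 1259 and 1246 in wild-type vehicle, 1057, 1128 and 1168 in wild-type SRT2104, 1337 and 1210.0 in untreated knockouts, and 1211, 1169, 1129 and 1206 in treated knockouts. The wild-type SRT2104 libraries were all below wild-type vehicle. Hspa8 (chr9:40609297-40611069), the constitutive HSP70, measured 821, 843, 938 and 833 in wild-type vehicle, 799, 879 and 846 in wild-type SRT2104, 979 and 875 in untreated knockouts, and 813, 821, 824 and 898 in treated knockouts, and its groups overlapped except for untreated knockout replicate 1. The transcription factors Hsf1, which shares its region with Bop1, and Hsf2, which shares its region with 4930467K11Rik, had means of 912 and 735. The inducible isoform Hsp90aa1, the HSP110 nucleotide exchange factors Hspa4 and Hsph1, the J-domain protein gene Dnajb1 and mitochondrial Hspa9 had means between 807 and 945, and Bag3 and Hspb1 were lower, at 410.1 and 110.5.

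The untreated knockouts were first compared with wild-type vehicle, which asks what loss of methionine synthase does to these promoters. Of the 39 genes, 32 had a log2 difference above 0, as had 65.4% of all regions, with a median of 0.05 against 0.03 for all regions (log2 of the value plus 1). The ER chaperones had the largest median of the classes (0.08, 11 of 14 above 0, and 10 of 14 after trimmed mean (TMM) scaling). The heat shock genes were above 0 in 11 of 11 (median 0.04), but in 8 of 11 after TMM scaling and in 10 with sex as a covariate. The sensors and factors were above 0 in 4 of 5 (2 with TMM), the degradation genes in 3 of 4 (2 with TMM) and the ATF4 targets in 3 of 5 (3 with TMM). Trib3, Asns, Ern1, Sdf2l1, Dnajb9, Dnajb11 and Edem1 were the 7 genes below 0.

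No gene of the 39 passed an adjusted p of 0.05 by limma in this comparison, where 0.00714% of all regions did. At an unadjusted p under 0.05 there were 3 genes, all ER chaperones, against 9.14% of all regions. All 3 were higher (6.20% of all regions) and 0 were lower (2.94%). By edgeR there were 0 calls and 3 genes at that unadjusted level (1357 of 14006 regions). Calr had the smallest p of the 39 in limma, at 679.7 ± 22.4 in wild-type vehicle (SD, n = 4) and 831 ± 71.5 in untreated knockouts (SD, n = 2), or 0.29 on the log2 scale (SE 0.06, 95% interval 0.17 to 0.41, limma adjusted p = 0.145). DESeq2 on the recovered reads gave Calr an adjusted p of 0.0292, where 25 of 14006 regions passed, and edgeR 0.0952. An adjusted p of 0.0578 and a log2 fold of 0.29 stand in the authors' deposited table. Over all alternatives run its adjusted p lay between 0.0078 and 0.778, and its log2 difference between 0.20 and 0.38. Pdia3 was 0.15 higher (SE 0.06, limma adjusted p = 0.470) and Hspa5 0.14 higher (SE 0.06, limma adjusted p = 0.521). Libraries of the groups did not overlap for 3 genes, Calr, Pdia3 and Hsp90b1, all higher in the knockouts (8.95% of all regions), and 0 were lower without overlap (4.29%). Over the genes other than Hspb1, the lowest lower bound of a 95% interval was -0.25 and the highest upper bound, that of Calr, was 0.41.

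The count of genes above 0 rested on untreated knockout replicate 1: without it 18 of 39 were above 0 (43.5% of all regions), and without replicate 2 the count was 35 (73.1%), with 14 genes at an unadjusted p under 0.05 (15.2% of all regions). Without replicate 1 the median of the ER chaperones was 0.01, with 8 of 14 above 0, and 5 of 11 heat shock genes, 2 of 5 sensors and factors, 1 of 4 degradation genes and 2 of 5 ATF4 targets were above 0. With TMM scaling, which moves the median of all regions close to 0, 25 of 39 were above 0 (49.4% of all regions), and with sex as a covariate 32. Cell type markers moved in the same comparison. The summed signal of the 10 astrocyte markers was 3195 to 3446 in wild-type vehicle and 3678 to 3714 in untreated knockouts, with 10 of 10 higher. That of the 9 vascular markers was 1322 to 1489 and 1531 to 1689, with 7 of 9 higher. The 7 choroid plexus and ependymal markers summed to 1547 to 2019 and 1427 to 1674, with 6 of 7 lower, and the 9 oligodendrocyte markers to 2703 to 3451 and 2579 to 3333, with 8 of 9 lower. The neuronal markers summed to 6182 to 7042 and 6833 to 7404, with 9 of 10 higher, and the microglial to 129 to 176 and 160 to 168, with 4 of 6 higher. Their part in the difference at the 39 genes was not tested.

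**Figure D2:**
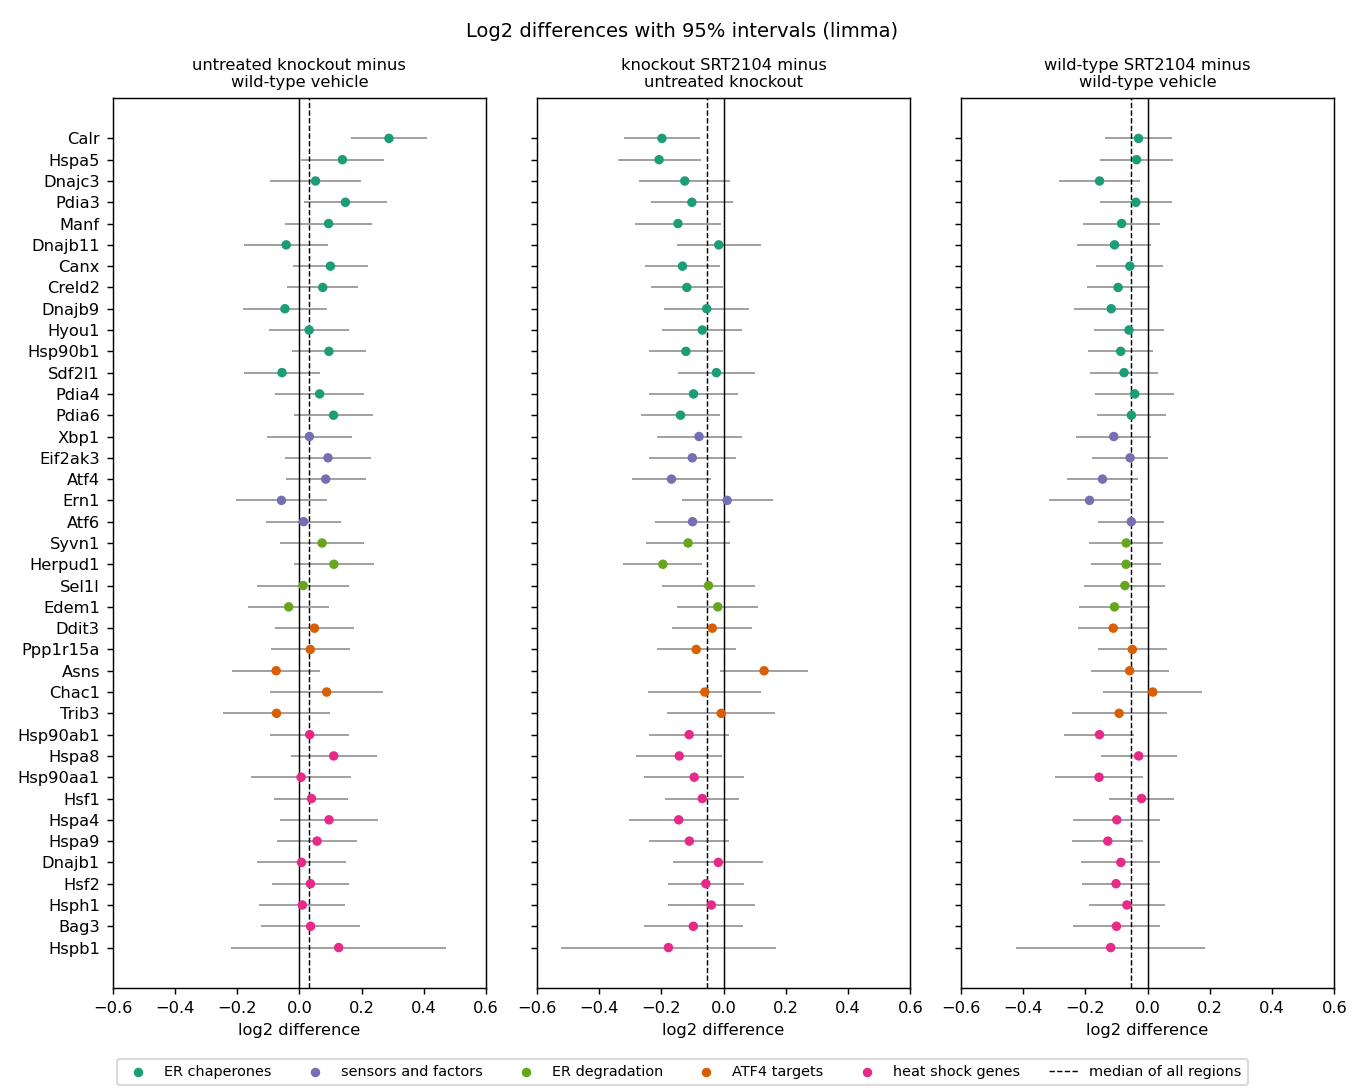
Log2 differences (horizontal axis, log2 of the normalised read count plus 1) with 95% intervals from limma for the 39 genes in 3 comparisons, coloured by class, with 0 as a solid line and the median of all regions as a dashed line. Calr is farthest to the right in the left panel at 0.29, and 37 of 39 and 38 of 39 genes lie left of 0 in the middle and right panels.

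SRT2104 in the knockouts was compared with no treatment in the knockouts, a comparison that shares the 2 untreated knockouts with the one above, so opposite signs in both are partly built in and the values are only set side by side. Here 37 of 39 genes were below 0, as were 71.4% of all regions, with a median of -0.10 against -0.05. All 14 ER chaperones were below 0 (median -0.12), as were 4 of 4 degradation genes, 11 of 11 heat shock genes (median -0.10), 4 of 5 sensors and factors and 4 of 5 ATF4 targets. Ern1 and Asns were the genes above 0. With TMM scaling, 29 of 39 were below 0 (7220 of 14006 regions). They included 12 of 14 ER chaperones, 9 of 11 heat shock genes, 2 of 4 degradation genes and 2 of 5 ATF4 targets. The directions of several genes therefore depend on the scaling.

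No gene of the 39 passed an adjusted p of 0.05 by limma, edgeR or DESeq2 (0.0% of all regions by limma). At an unadjusted p under 0.05 there were 7 genes by edgeR (1526 of 14006 regions) and 10 by limma (12.5% of all regions). All 10 were lower (8.33% of all regions) and 0 higher (4.20%). They were Calr, Hspa5, Herpud1, Atf4, Pdia6, Canx, Manf, Hspa8, Creld2 and Hsp90b1, so 7 of the 10 were ER chaperones. Calr averaged 831 ± 71.5 untreated (SD, n = 2) and 723 ± 19.4 treated (SD, n = 4), a difference of -0.20 on the log2 scale (SE 0.06, limma adjusted p = 0.239). Hspa5 differed by -0.21 (SE 0.06, limma adjusted p = 0.244), from 1098 ± 73.9 to 951 ± 46.1. Herpud1 differed by -0.19 (SE 0.06, limma adjusted p = 0.250), from 1144 ± 58.1 to 999 ± 50.3. The libraries did not overlap for 10 lower genes (15.5% of all regions), namely Calr, Hspa5, Hsp90b1, Canx, Pdia6, Creld2, Atf4, Herpud1, Ppp1r15a and Bag3, and for 1 higher gene, Asns (6.19% of all regions). Asns averaged 433 ± 7.44 untreated and 475 ± 31.1 treated, or 0.13 on the log2 scale (SE 0.07).

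In the females alone, 2 untreated and 2 treated, Calr was at -0.18, Hspa5 at -0.22 and Herpud1 at -0.22. The count of genes below 0 turned on the untreated knockouts. Without replicate 1, 26 of 39 were below 0 (50.7% of all regions) and 2 genes had an unadjusted p under 0.05 (7.86%), and without replicate 2, 36 of 39 (25.0% of all regions were above 0) and 22 genes (22.5%). Without replicate 1, 11 of 14 ER chaperones were below 0 (median -0.04), with 0 of 14 at an unadjusted p under 0.05, and so were 8 of 11 heat shock genes (median -0.02), 3 of 5 sensors and factors, 1 of 4 degradation genes and 3 of 5 ATF4 targets. The astrocyte markers summed to 3212 to 3372 in treated knockouts, with 10 of 10 lower than untreated, the vascular to 1267 to 1479.5 (8 of 9 lower), the neuronal to 6291 to 7285 (7 of 10 lower) and the microglial to 154 to 176 (3 of 6 lower). The choroid plexus and ependymal markers summed to 1677 to 2094 (6 of 7 higher) and the oligodendrocyte markers to 3106 to 3251 (7 of 9 higher). Their part was not tested.

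Genes with the ER stress response element were looked at together. The element was read from sequence, but 7 of the 8 holders are ER chaperones, so the grouping largely repeats that class. The genes were also chosen with earlier results known, and those without a window, such as Manf and Hyou1, were left out. Of all regions, 65.4%, 71.4%, 71.5% and 67.8% had the direction counted in the 4 comparisons below, in the order given. Only the longer form, CCAAT and CCACG with 9 bases between, was counted. Herpud1 and Dnajb11, which hold the shorter second form, were therefore among the others. In untreated knockouts against wild-type vehicle, 8 of the 8 genes that hold the longer form were above 0 (median 0.10), also with TMM scaling and with sex as a covariate, and 16 of the 23 other genes with a window were (median 0.03). In treated against untreated knockouts, 8 of 8 were below 0 (median -0.13) and 21 of 23 others (median -0.06). The 5 ER chaperones with a window and without the longer form, which include Dnajb11, were above 0 in 2 of 5 in the former comparison (median -0.04) and below 0 in 5 of 5 in the latter (median -0.05). Without untreated knockout replicate 1, 6 of 8 holders were above 0 in the former (median 0.03) and 7 of 8 below 0 in the latter (median -0.06), against 9 of 23 and 12 of 23 of the others. With SRT2104 in wild type the holders were closer to 0 than the others (median -0.06, 8 of 8 below 0, against -0.09, 22 of 23), and between genotypes under SRT2104 their median was 0.04 (7 of 8 above 0) against 0.05 (20 of 23). These are counts over genes that share libraries, given with no test.

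**Figure D3:**
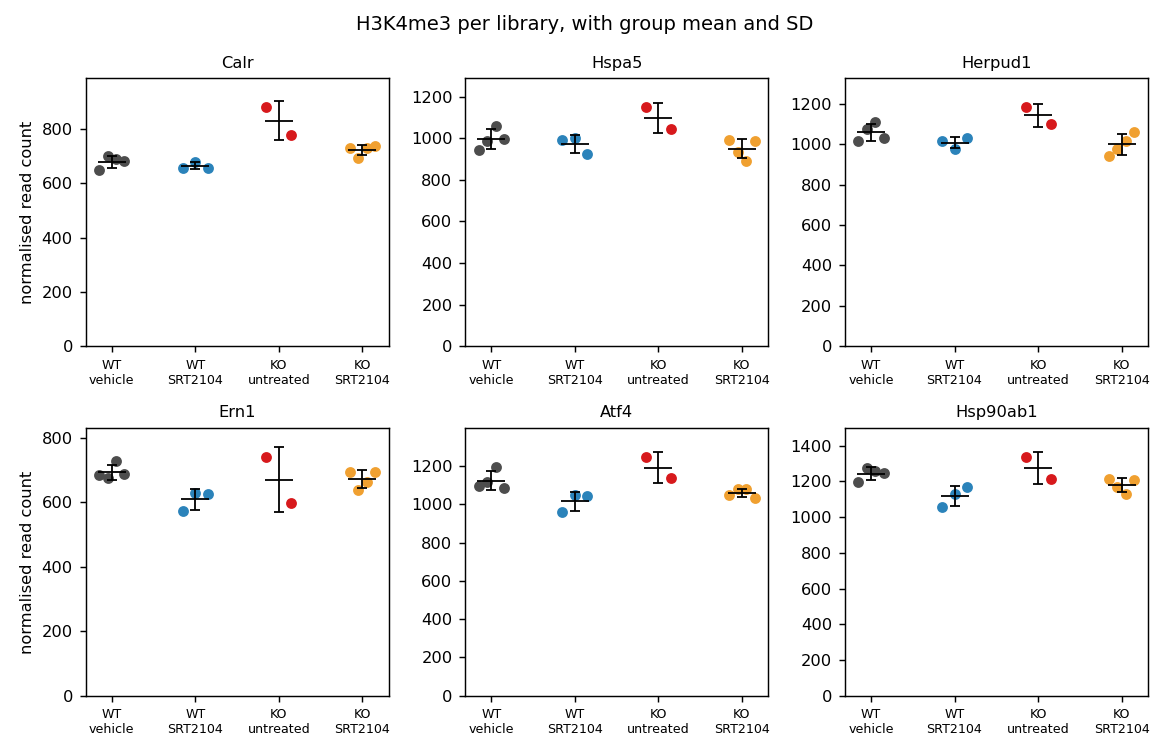
Normalised read count (vertical axis, from 0) per library for Calr, Hspa5, Herpud1, Ern1, Atf4 and Hsp90ab1 in the 4 groups, with group means and SDs in black. Both untreated knockouts stand above the other groups for Calr, and the wild-type SRT2104 libraries stand below wild-type vehicle for Ern1, Atf4 and Hsp90ab1.

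In wild-type mice SRT2104 was compared with vehicle. Of the 39 genes, 38 were below 0, as were 71.5% of all regions, with a median of -0.08 against -0.05, and Chac1 was the exception. All 14 ER chaperones (9 with TMM scaling), 11 of 11 heat shock genes (9), 5 of 5 sensors and factors (4), 4 of 4 degradation genes (4) and 4 of 5 ATF4 targets (3) were below 0. With TMM scaling that was 29 of 39 in all (6978 of 14006 regions). No gene passed an adjusted p of 0.05 by limma (0.00714% of all regions), edgeR or DESeq2. At an unadjusted p under 0.05 edgeR gave 3 genes (1002 of 14006 regions) and limma 6 (13.4% of all regions). All 6 were lower (11.4% of all regions) and 0 higher (1.96%). Ern1 averaged 694 ± 23.5 with vehicle (SD, n = 4) and 610.0 ± 33.0 with SRT2104 (SD, n = 3), or -0.19 on the log2 scale (SE 0.06, limma adjusted p = 0.332). Hsp90ab1 differed by -0.15 (SE 0.05, limma adjusted p = 0.332), from 1243 ± 33.8 to 1118 ± 55.9, and Atf4 by -0.14 (SE 0.05, limma adjusted p = 0.335), from 1124 ± 50.2 to 1017 ± 51.0. The other 3 were Dnajc3, Hspa9 and Hsp90aa1. The libraries did not overlap for 0 higher genes (1.75% of all regions) and for 8 lower ones (12.7%), which were Ern1, Atf4, Atf6, Xbp1, Ddit3, Hsp90ab1, Creld2 and Dnajb11, so 4 of the 5 sensors and factors were among them.

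The shallow wild-type SRT2104 replicate 1 carried much of this. Without it, 36 of 39 genes were below 0 (66.5% of all regions), with a median of -0.05 against -0.03 for all regions, but 1 gene had an unadjusted p under 0.05 (3.56% of all regions). Replicate 1 is also the only female wild-type library, so depth and sex cannot be told apart in it. The males alone are therefore the same wild-type libraries as those left without it. In them Ern1 was at -0.14, Hsp90ab1 at -0.12 and Atf4 at -0.10. Of the marker lists, 8 of 10 neuronal markers were higher with SRT2104 in wild type (6417 to 7405 summed), 7 of 10 astrocyte (3375 to 3441), 4 of 6 microglial (165 to 207) and 7 of 9 vascular (1433 to 1529.7), while 8 of 9 oligodendrocyte markers (2701 to 3057) and 5 of 7 choroid plexus and ependymal markers (1534 to 1970) were lower. Their part was not tested.

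**Figure D4:**
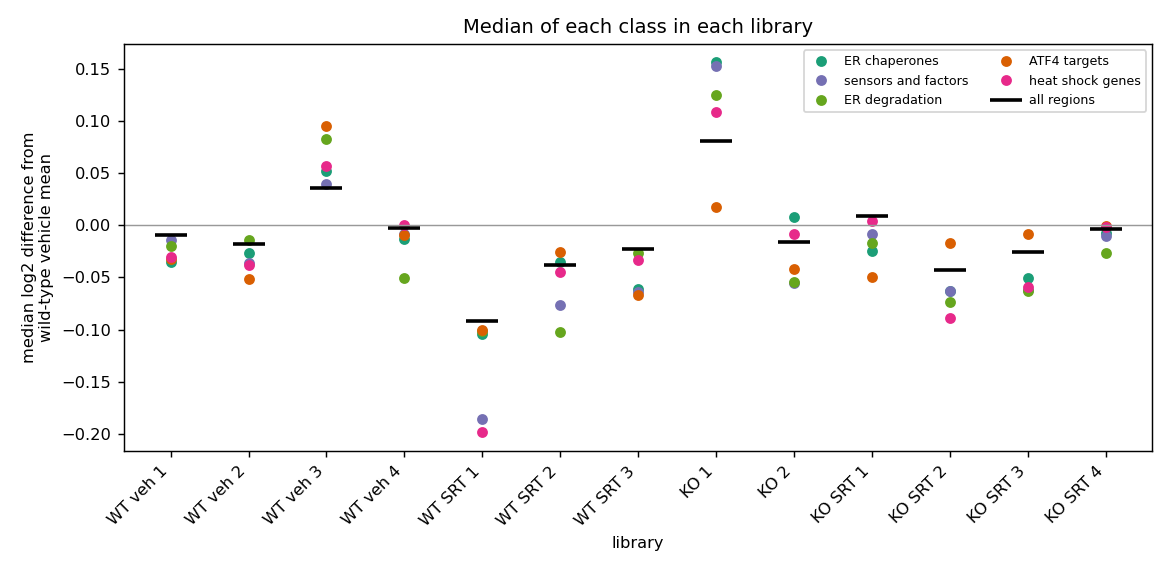
Median log2 difference of each class from the wild-type vehicle mean (vertical axis) in each of the 13 libraries, with the median of all regions as a black bar. In untreated knockout replicate 1, 4 of the 5 class medians lie above the bar, the ER chaperones at 0.16, and in wild-type SRT2104 replicate 1 all 5 lie below it.

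Between genotypes under SRT2104, 32 of 39 genes were above 0 in the knockouts (67.8% of all regions), with a median of 0.05 against 0.03. With TMM scaling 23 were above 0 (6908 of 14006 regions). By limma, edgeR and DESeq2, 0 genes passed an adjusted p of 0.05 (0.00714% of all regions by limma). At an unadjusted p under 0.05 edgeR gave 1 (536 of 14006 regions) and limma 3 (6.20% of all regions). The 3 were higher (5.17% of all regions), with 0 lower (1.04%). They were Calr (log2 0.12, SE 0.05), Ddit3 (0.12, SE 0.05) and Ern1 (0.14, SE 0.06), each with a limma adjusted p of 0.780. These 3 and Creld2 were higher without overlap between the groups (5.09% of all regions), and 0 were lower (1.71%). In the males alone, which also leaves out wild-type SRT2104 replicate 1, Calr was at 0.10, Ern1 at 0.08 and Ddit3 at 0.07. Without wild-type SRT2104 replicate 1, 22 of 39 were above 0, a share below that of all regions (59.4%), and 0 had an unadjusted p under 0.05 (2.13% of all regions). Of the markers, 9 of 9 oligodendrocyte and 7 of 7 choroid plexus and ependymal ones were higher in the knockouts, 6 of 6 microglial, 8 of 9 vascular and 8 of 10 astrocyte ones were lower, and the neuronal were split 5 and 5. Their part was not tested.

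In treated knockouts against wild-type vehicle, 34 of the 39 genes were below 0 (61.5% of all regions), with a median of -0.05 against -0.02. Those above 0 were Calr, Pdia3, Ddit3, Asns and Chac1. With TMM scaling, 32 genes were below 0 (6945 of 14006 regions). Without wild-type vehicle replicate 3, 28 genes were below 0, for which the share of all regions is not given here. By limma, edgeR and DESeq2, 0 passed an adjusted p of 0.05 (0.00714% of all regions by limma). At an unadjusted p under 0.05 there were 0 by limma (2.16% of all regions, 0.821% higher and 1.34% lower) and 1 by edgeR (475 of 14006 regions). The smallest p-values were those of Dnajb9 (log2 -0.10, SE 0.05), Calr (0.09, SE 0.05) and Atf6 (-0.09, SE 0.05), with limma adjusted p = 1.00 for each. Of the 39, only Atf4 had no overlap, with all treated knockouts below all vehicle libraries (2.32% of all regions), and 0 genes were higher without overlap (0.436%). In the males alone Dnajb9 was at -0.07, Calr at 0.08 and Atf6 at -0.04. Intervals for the genes outside Hspb1 lay between -0.22 and 0.19.

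Whether the response to SRT2104 differed by genotype was asked with an interaction term. By limma, edgeR and DESeq2, 0 of the 39 passed an adjusted p of 0.05 (0.0% of all regions by limma). At an unadjusted p under 0.05 there were 4 by edgeR (1170 of 14006 regions) and 2 by limma (7.88% of all regions). Of these, 1 was higher (3.83% of all regions) and 1 lower (4.04%), and 18 of the 39 were above 0 (52.6% of all regions). That count was 29 without untreated knockout replicate 1, 7 without replicate 2 and 12 with sex as a covariate (6653 of 14006 regions). The count gives no stable direction. The share of all regions is not given here for the fits without a replicate. How far the count moved with all regions there is therefore not shown. Calr was more negative in the knockouts (log2 -0.17, SE 0.08, limma adjusted p = 0.614) and Ern1 less (0.20, SE 0.09, limma adjusted p = 0.620). Asns followed at 0.19 (SE 0.09). Asked for any difference among the 4 groups, limma gave 10 of 39 genes at an unadjusted p under 0.05 (11.5% of all regions) and 0 at the adjusted one (0.00714%). At the adjusted one edgeR gave 0 (1 of 14006 regions), and DESeq2 gave 1, Calr (40 of 14006 regions).

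Beyond the 39, further genes of the same pathways were measured: 46 of ER folding and degradation, 32 of the ATF4 programme and 35 of the heat shock response. By limma, edgeR and DESeq2, 0 of them passed an adjusted p of 0.05 in any comparison. At an unadjusted p under 0.05, limma gave 0, 4 and 3 of them in untreated knockouts against wild-type vehicle (edgeR 3, 5 and 3, and 9.14% of all regions by limma), 7, 6 and 3 in treated against untreated knockouts (edgeR 3, 4 and 2, and 12.5% of all regions) and 2, 4 and 7 with SRT2104 in wild type (edgeR 0, 0 and 4, and 13.4% of all regions). Between genotypes under SRT2104 limma gave 0, 2 and 0 (6.20% of all regions) and edgeR 1, 1 and 0, and between treated knockouts and wild-type vehicle limma gave 2, 0 and 2 (2.16% of all regions) and edgeR 3, 0 and 2. By edgeR, 1357, 1526, 1002, 536 and 475 of 14006 regions reached that level in these comparisons, in the order given. In untreated knockouts against wild-type vehicle, 34 of the 46, 24 of the 32 and 29 of the 35 were above 0 (65.4% of all regions), and in treated against untreated knockouts 43, 25 and 33 were below 0 (71.4%). Without untreated knockout replicate 1 these were 16, 17 and 8 above 0 (43.5% of all regions) and 25, 17 and 17 below 0 (50.7%). With TMM scaling they were 23, 21 and 21 above 0 (6925 of 14006 regions) and 31, 20 and 24 below 0 (7220 of 14006 regions). In both comparisons the heat shock genes with the smallest p were the inducible HSP70 genes. Hspa1a (chr17:35108828-35109876), which shares its region with Hspa1l, measured 169, 204, 164 and 209 in wild-type vehicle, 179, 148 and 223 in wild-type SRT2104, 146 and 93.1 in untreated knockouts, and 156, 162, 157 and 220.5 in treated knockouts. Hspa1b (chr17:35095908-35097160) measured 216, 262, 218 and 286 in wild-type vehicle, 204, 216 and 303 in wild-type SRT2104, 209.7 and 142 in untreated knockouts, and 239, 239, 214 and 242 in treated knockouts. The untreated knockouts had the lowest mean, with the 2 libraries far apart, and replicate 2 was the lowest library for each gene. Replicate 1 was below all other groups for Hspa1a and within them for Hspa1b. For Hspa1a the log2 difference was -0.66 (SE 0.19, limma adjusted p = 0.311) against wild-type vehicle and that of treated against untreated knockouts 0.55 (SE 0.19). For Hspa1b they were -0.49 (SE 0.17) and 0.43 (SE 0.17). The pair are near-identical copies, so how reads were shared between them is uncertain and they are not independent.

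In the ATF4 list, the stress-induced factor gene Atf3 differed by -0.25 on the log2 scale between untreated knockouts and wild-type vehicle (503 ± 23.8 and 599 ± 58.4), and the amino acid transporter gene Slc7a5, which shares its region with BC048644, by 0.22 (924 ± 13.3 and 794 ± 79.4). Slc7a5 differed by -0.24 between treated and untreated knockouts, and the cystine transporter gene Slc7a11 by -0.39. Of the ER list, Mbtps1, the protease that cleaves ATF6, was at 0.13 and -0.19 in the same comparisons, Ssr2 at 0.13 in the former and the ubiquitin ligase gene Rnf5 at -0.15 in the latter. With SRT2104 in wild type, the smallest p-values belonged to the chaperonin gene Cct2 (-0.18) and the HSP90 co-chaperone gene Fkbp4 (-0.16), to the BiP exchange factor gene Sil1 (-0.21) and Edem3 (-0.13), and to Wars (-0.15) and Slc7a1 (-0.12). Between genotypes under SRT2104 they belonged to Cebpb (0.16), Wars (0.12), Selk (-0.10), Sil1 (0.14), Hsf4 (0.12) and Dnajb4 (0.11). Between treated knockouts and wild-type vehicle they belonged to Ufd1l (-0.12), Ssr1 (-0.10), Cct2 (-0.13), Hspb6 (-0.13), Stc2 (0.10) and Shmt2 (-0.14). For the interaction they belonged to Atf3 (0.30), Slc7a5 (-0.26), Hspa1a (0.59), Hspa1b (0.47), Selk (-0.13) and Mbtps1 (-0.13). Regions were also shared for Rnf5 (with Agpat1), Fkbp4 (Gm10069), Wars (Wdr25), Cebpb (A530013C23Rik), Dnajb4 (Fubp1) and Ufd1l (Cdc45).

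Calr, Eif2ak3, Hspa8 and Hspb1 each had a second, weaker region and Ddit3 a further 2. The weaker region of Hspa8 (chr9:40608083-40608893), 810 bp long and before the stronger one on the gene's strand, measured 329.7, 399, 399 and 336 in wild-type vehicle, 343, 389 and 363 in wild-type SRT2104, 322 and 202 in untreated knockouts, and 301, 326, 349.5 and 339.7 in treated knockouts. The untreated knockouts lay below all wild-type libraries, replicate 2 by far. Its log2 difference from wild-type vehicle was -0.51 (limma adjusted p = 0.306), against 0.11 at the stronger region, and between treated and untreated knockouts it was 0.36 against -0.14. The weaker region of Calr averaged 192 ± 17.6 in wild-type vehicle and 172 ± 3.36 in untreated knockouts, a difference of -0.15 against 0.29 at the stronger region. The weaker region of Eif2ak3 was at -0.15 in that comparison, that of Hspb1 at 0.01 and those of Ddit3 at 0.03 and -0.03.

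**Figure D5:**
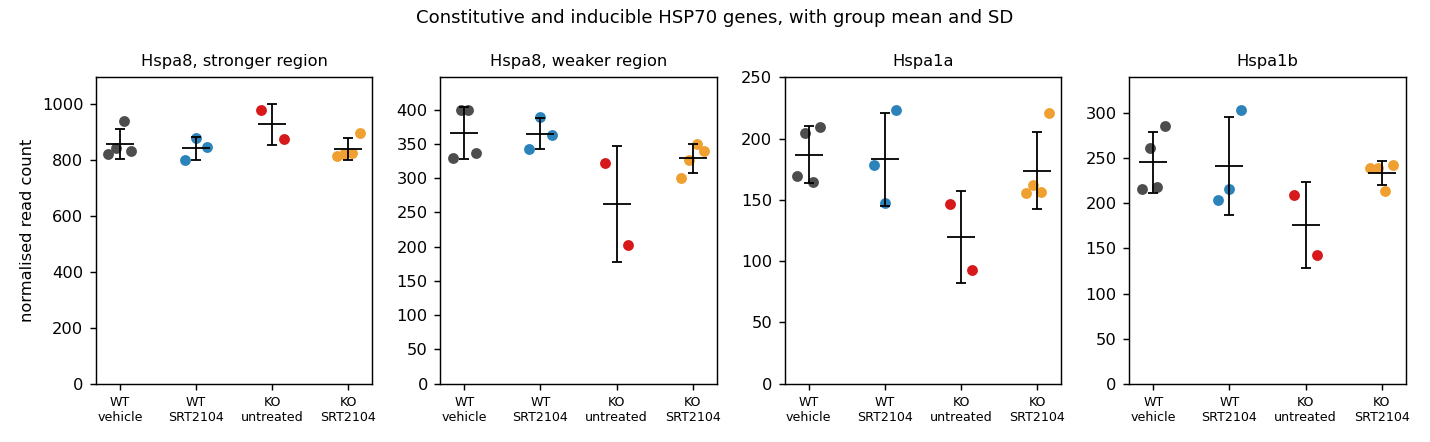
Normalised read count (vertical axis, from 0) per library at both regions of the constitutive HSP70 gene Hspa8 and at the inducible genes Hspa1a and Hspa1b, with group means and SDs in black. Untreated knockout replicate 2 is the lowest library in the 3 right panels, at 202, 93.1 and 142, and replicate 1 is the highest at the stronger Hspa8 region, at 979.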

How the data were processed

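H3K4me3 was measured by chromatin immunoprecipitation and sequencing. Bowtie2, SAMtools, bedtools, MACS2 and DESeq2 and the build mm9 are named, without roles or versions, per the submitters' processing notes. The deposited signal values are read counts that the authors divided by 1 factor per library: 100% were whole multiples of a step per library within 0.001 reads. A log2 fold change stands in the authors' deposited table with raw and adjusted p-values, for knockout against wild type. That table lists 17212 lines, which were reduced to 14006 distinct regions. The promoter windows listed with the regions are most often 2500 bp. How regions were called and whether starts count from 0 is not given in the sources used here.

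Values were tested as log2(value + 1) by limma 3.58.1 (R 4.3.3, mean trend, robust variances) over all regions and all 13 libraries, with 1 coefficient per group and two-sided Benjamini-Hochberg adjusted p under 0.05. Fold changes on this scale understate those of low regions. A filter of 10 in at least 2 libraries removed 0 regions. Means are given with the SD over libraries. Alternatives were edgeR 4.0.16 and DESeq2 1.42.0 on the recovered read counts, TMM scaling, a pseudocount of 10, no filter, sex as a covariate, a replicate block, only the groups compared, males or females only, the widest region per gene and leaving out each library. The fits were tested on simulated data. Tables and figures used Python 3.11.15, pandas 2.3.3 and matplotlib 3.10.9. Reads per region, a median of 277 in the shallowest library and 632 in the deepest, limit the precision, and PCR duplicates may be among them.

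The genes and lists were chosen with earlier results of these data known. Genes given in every library were the 2 of each class with the highest signal per kb and the 3 with the smallest limma p in each comparison. Of the further pathway genes, the 2 with the smallest p per list and comparison were named. Asns, Hsp90b1 and others with no overlap between groups, and the weaker regions, were chosen after their values were seen. Some markers, such as Cx3cr1, Aif1, Itgam, Ptprc, Sox17, Ttr, Folr1 and Kcnj13, were not analysed here.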

Additional observations from a re-analysis of the deposited data

Results flagged for a closer look

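In the groups of 4 libraries, the gap of the highest or lowest library to the rest was compared with the range of its group, for 78 combinations of gene and group. Chance marks about 1 in 20 such groups, and 5 were marked here. Manf, a secreted ER stress factor, was 827.6 in wild-type vehicle replicate 3, against 739.3 to 750.5 in the other libraries of the group. Chac1 was 493.7 in the same library, against 369.6 to 390.6. Eif2ak3 was 555.5 in wild-type vehicle replicate 2, against 608.2 to 617.5. Calr was 694.6 in treated knockout replicate 2, against 730.5 to 737.5. Hspa8 was 897.9 in treated knockout replicate 4, against 813.4 to 824.4.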

How the results depend on the processing

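Calls were few under every setting. In untreated knockouts against wild-type vehicle, 1 of the 39 genes, Calr, passed an adjusted p of 0.05 with DESeq2 and with only the groups compared, and 0 to 1 when single libraries were left out: it passed without untreated knockout replicate 2 (limma adjusted p = 0.0468, with the lone knockout assumed to vary like the other groups) and without wild-type vehicle replicate 3 (limma adjusted p = 0.0078). For any difference among the 4 groups, DESeq2 gave 1 gene (Calr), and leaving out single libraries gave 0 to 1, again without wild-type vehicle replicate 3. In every other comparison 0 genes passed under each alternative that could be run. The median of the 39 genes minus that of all regions, 0.02 in untreated knockouts against wild-type vehicle, was 0.04 (0.04296) with sex as a covariate and -0.00298 to 0.0365 when single libraries were left out. Between genotypes under SRT2104 it was -0.007525 to 0.02489, the lowest without wild-type SRT2104 replicate 1. Of the 18 named differences under 24 other settings, 401 values kept their direction and side of the threshold, 4 passed it (all Calr) and 0 reversed. This was largely built in, since the 18 were picked for the smallest p-values in these same libraries. As 0 of them passed in the main fit, keeping the side of the threshold means staying above it. The setting with no filter equals the main fit, as the filter removed 0 regions. Counts of genes above or below 0 moved most, as given beside them, with alternatives chosen after seeing the data. TMM scaling raised wild-type SRT2104 replicate 1 by 0.08 (log2) and lowered untreated knockout replicate 1 by 0.09. The cause of these changes was not tested.

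Of 16 same-numbered pairs of libraries, 3 had correlated deviations from the group mean above 0.1 (range -0.293 to 0.193). Pairs with different numbers ranged from -0.495 to 0.410. The deviations sum to 0 within each small group, and those of the 2 untreated knockouts mirror each other. The correlations therefore cannot tell whether equal numbers mark a shared litter or day. With the replicate number as a block, 0 of the 39 genes passed in each comparison, and Calr was at 0.30 (limma adjusted p = 0.239) in untreated knockouts against wild-type vehicle. With 2 untreated knockouts, all comparisons with them rest on few libraries. Both untreated knockouts are female, so males alone gave no value for comparisons with them, and females alone gave values for treated against untreated knockouts only.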
